A study of Bos taurus
Mus musculus with 10 samples.

Results

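The genes described here are the D-type cyclins CCND1, CCND2 and CCND3 and the MYC-family genes MYC and MYCN, in bovine embryonic stem cells and in the mouse feeder cells that shared their wells. The members were chosen by gene symbol among 27590 bovine gene IDs and by NCBI gene ID among 31349 mouse gene IDs. All 5 bovine and all 5 mouse members were found, and all of them passed the filter on low values. The bovine IDs were 524530 (CCND1), 615414 (CCND2), 540547 (CCND3), 511077 (MYC) and 616888 (MYCN). The mouse IDs were 12443 (Ccnd1), 12444 (Ccnd2), 12445 (Ccnd3), 17869 (Myc) and 18109 (Mycn).

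RNA was sequenced from 10 wells. In 5 wells, called IWRR, the medium had its IWR-1 removed for 1 day; the other 5 wells, called IWR, kept medium with 2.5 µM IWR-1. IWR-1 inhibits tankyrase; AXIN is then degraded less, and the Wnt/beta-catenin pathway is held down. Each of the wild-type bovine stem cell lines 1, 2, 4, 8 and 11, derived from blastocysts of day 7.5, supplied 1 well per medium, so that a line is represented by a single well in each group. All wells, in both media, also held embryonic fibroblasts of CD-1 mouse fetuses (E13.5) that had been exposed to mitomycin C for 2 h to stop their growth before use as feeders. Each well yielded 48064953 to 64345738 reads on bovine genes and 17101894 to 35223039 on mouse genes, held in separate tables.

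D-type cyclins are the mitogen-sensing cyclins of the cell cycle. They bind the kinases CDK4 and CDK6, which phosphorylate the retinoblastoma family of proteins, release E2F factors and let a cell enter S phase. MYC and MYCN are transcription factors that pair with MAX and raise genes of ribosome production, metabolism and growth. CCND1 and MYC are textbook target genes of beta-catenin in human cells, and MYCN is known as the MYC family member of early embryonic and neural progenitor cells in the mouse. Mitomycin C crosslinks DNA and leaves feeder cells alive but unable to divide.

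The bovine table was first checked against the labelled cell type. The pluripotency genes POU5F1, SOX2 and NANOG were present in every well, with SOX2 at 13371 to 19067 normalised reads in IWRR wells and 13611 to 22072 in IWR wells. Values given as normalised reads are reads after scaling by a factor for each library. Line 4 stood apart by its bovine fibroblast and mesenchyme genes, and by single genes of other lists given below. The summed signal of 14 such markers, all of which passed the filter, was 156234 normalised reads in IWRR and 141046 in IWR in line 4, against 17279 to 54127 in IWRR and 14454 to 39072 in IWR in the other lines. The sum was higher in the IWRR well in 5 of 5 lines, but single markers differed. Of the 14, 5 were higher in IWRR in all 5 lines (COL1A1, COL5A1, PDGFRB, THY1 and TWIST1), whereas COL1A2 and DCN were lower in 4 of 5; no marker was at 0 in all wells. The sum of 9 pluripotency markers was lower in the IWRR well in all 5 lines and lowest in line 4, at 96861 in IWRR and 100623 in IWR, against 105225 to 190854 in IWRR and 113317 to 192135 in IWR in the other lines. Of these 9, 1 (DNMT3B) was lower in IWRR in all 5 lines and 4, NANOG among them, were higher in all 5. In lines 1, 2, 4 and 8 the lower sum rested on DNMT3B, which in line 8 was at 37135 in IWRR and 46791 in IWR. COL3A1, a fibrillar collagen gene, was at 29627 in IWRR and 27503 in IWR in line 4, against 13.8 to 537 in IWRR and 4.05 to 484 in IWR in the other lines. Summed trophectoderm markers (2 of 6 passed the filter) were at 215 to 2095 in IWRR and 211 to 1810.4 in IWR wells, hypoblast markers (2 of 4) at 107 to 781 in IWRR and 74.9 to 840.1 in IWR, and mesoderm markers (3 of 5) at 151 to 436 in IWRR and 166 to 262 in IWR. The highest hypoblast sums, in line 4, were mostly PDGFRA (771 in IWRR and 817 in IWR), which is also on the fibroblast list. GATA4 and SOX17 were at 0 in both wells of line 4. The highest mesoderm sums were also in line 4. There TBXT was at 171 in IWRR and 76.2 in IWR, against 1.04 to 2.96 in IWRR and 0 in IWR in the other lines. The highest trophectoderm sums, in line 8, were mostly the keratin gene KRT7 (2090 in IWRR and 1796 in IWR). KRT7 was lowest in line 4, at 68.1 in IWRR and 39.3 in IWR. TFAP2A, of the same list, was highest in line 4, at 428 in IWRR and 376 in IWR. In the other lines it was at 0.91 to 22.9 in IWRR and 7.09 to 13.6 in IWR. CDX2 was at 86.6 in the IWRR well and 1.19 in the IWR well of line 4. The mouse table pairs no other ID with a name, so the feeders' own markers were not analysed here.

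CCND1, which encodes cyclin D1, was the bovine member that rose after IWR-1 withdrawal. In lines 1, 2, 4, 8 and 11 it stood at 1709.5, 1869.7, 5399, 1155 and 1961 normalised reads in IWRR wells, against 753, 772, 3814, 501 and 654 in IWR wells. The IWRR well of every line was higher than its own IWR well, but the groups overlapped because the IWR well of line 4 exceeded the IWRR wells of the other 4 lines. Compared within lines, CCND1 was 2.22-fold higher in IWRR (95% CI 1.83 to 2.68; log2 fold change 1.15 ± 0.12 SE, n = 5 lines, limma adjusted p = 0.0027). CCND1 was thus 1 of 5 bovine members called, and called as higher, where 0.951% of all 18506 tested bovine genes were called in either direction and 0.886% as higher. No bovine member was called as lower, where 0.0648% of all tested genes were. No bovine member had every IWRR well above every IWR well, which held for 0.0702% of all tested genes. Among those 18506 genes CCND1 ranked number 15 by p and number 42 by log2 fold change.

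**Figure D1:**
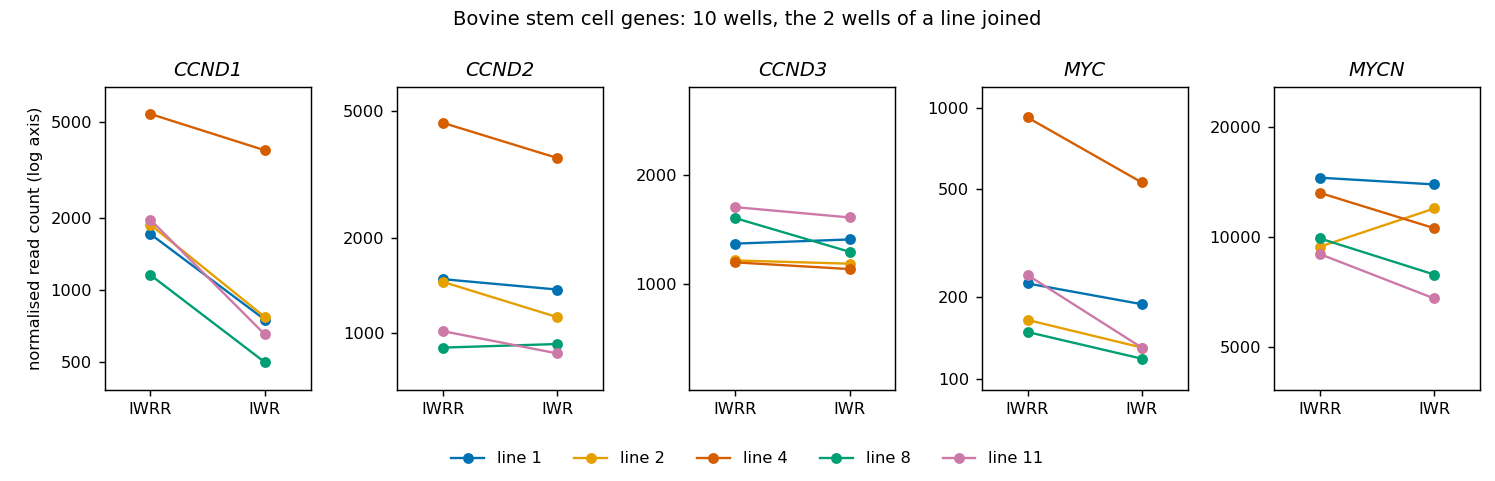
Normalised read counts (log axis) of the 5 bovine members in the 10 wells, with IWRR left of IWR and the wells of a line joined. CCND1 is higher in the IWRR well of all 5 lines, and line 4 lies above the other lines for CCND1, CCND2 and MYC in both media but not for CCND3 or MYCN.

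The size of the CCND1 change varied between lines. The log2 difference between the IWRR and the IWR well was 1.18 in line 1, 1.27 in line 2, 0.50 in line 4, 1.20 in line 8 and 1.58 in line 11. Line 4, with the highest level in both media, had the smallest relative change. Without line 4 the log2 fold change was 1.31 (adjusted p by limma = 0.000399), and it lay between 1.04 and 1.31 with any 1 line left out, called in each of those 5 fits. With the medium as the only term, without the line, the call was lost (limma adjusted p = 1.00).

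The share of reads on mouse genes moved with the medium. It was 26.8% ± 8.45 in IWRR and 30.4% ± 7.57 in IWR wells (SD, n = 5 each), and it was lower in IWRR in 5 of 5 lines (exact sign-flip p = 0.063, the smallest that 5 pairs allow). The line with the smallest CCND1 change, line 4, had the smallest difference in mouse share (-0.92 percentage points), and the line with the largest, line 11, had the largest (-6.63 points). Lines 1, 2 and 8, with CCND1 changes close to each other, differed by -2.26, -4.19 and -4.22 points. With the mouse share as a further term beside the line, the CCND1 log2 fold change was 0.55 ± 0.17 SE (95% CI 0.16 to 0.94). Its limma p was 0.0103 unadjusted and 1.00 adjusted. Limma called 0 bovine genes in that fit (456 had an unadjusted p under 0.05), and edgeR and DESeq2 were not run with this term. Because the share was lower in IWRR in 5 of 5 lines, the fit cannot tell the share and the medium apart. The bovine fibroblast marker sum was also higher and the pluripotency marker sum lower in the IWRR well in 5 of 5 lines. Single markers of both lists went either way, and the lower pluripotency sum rested on DNMT3B in lines 1, 2, 4 and 8. The part of these markers in the CCND1 change was not tested. In such bulk samples fewer cells of a type and less RNA per cell cannot be told apart.

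The handling of reads that fit either genome is not stated in any source used here, so the reads of the same gene in both tables were set side by side. Bovine CCND1 had 1274 to 4678 reads in IWRR and 541 to 3205 in IWR wells, while mouse Ccnd1 had 12274 to 40182 reads in IWRR and 14704 to 42381 in IWR wells. Bovine CCND1 reads were more numerous in the IWRR well in 5 of 5 lines, whereas mouse Ccnd1 reads were fewer there in 4 of 5 lines. These reads are not scaled for depth, and the mouse total was lower in the IWRR well of every line. In line 11 that total was 22091012 reads in IWRR against 30659746 in IWR. After scaling, mouse Ccnd1 was higher in IWRR in 3 of 5 lines. For the other members bovine reads were more numerous in IWRR in 5 of 5 lines for CCND3 and MYC and in 4 of 5 for CCND2 and MYCN, and mouse reads were fewer there in 2 of 5 lines for Ccnd2, 3 of 5 for Ccnd3 and 1 of 5 for Myc and for Mycn. There were 7.43 to 11.6 bovine CCND1 reads per 100 mouse Ccnd1 reads in IWRR and 2.23 to 7.56 in IWR wells. Whether some reads were counted for the wrong species was not tested.

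CCND2, encoding cyclin D2, did not pass the test. In lines 1, 2, 4, 8 and 11 it was at 1479.9, 1451.5, 4592, 901 and 1016 normalised reads in IWRR wells, against 1373, 1124, 3560, 925 and 864 in IWR wells. It was higher in the IWRR well in 4 of 5 lines, with a log2 fold change of 0.21 ± 0.07 SE (95% CI 0.04 to 0.37, limma adjusted p = 0.336). The within-line change of CCND1 exceeded that of CCND2 in 5 of 5 lines, by a mean of 0.94 on the log2 scale (0.13 in line 4, the lowest, to 1.35 in line 11, the highest).

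CCND3, encoding cyclin D3, varied least of the bovine D-type cyclins. It stood at 1294, 1164, 1149.6, 1519.9 and 1629 normalised reads in IWRR wells of lines 1, 2, 4, 8 and 11, against 1328, 1140.0, 1102, 1229 and 1526 in IWR wells. The groups overlapped almost fully, and the log2 fold change was 0.09 ± 0.07 SE (95% CI -0.06 to 0.24, adjusted p by limma = 0.782). That interval excludes a change of the size seen for CCND1.

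CCND1 took a larger part of the D-type cyclin signal in every IWRR well than in the IWR well of its line. A share of the summed signal depends on transcript length, so only its difference between wells is compared. CCND1 made up 40.6% ± 5.96 of the summed CCND1, CCND2 and CCND3 signal in IWRR and 26.5% ± 10.6 in IWR wells (SD, n = 5 each). Its share was higher in the IWRR well in 5 of 5 lines, by 3.47 points in line 4 and by 13.4 to 21.1 points in the other lines (exact two-sided sign-flip p = 0.063, the smallest that 5 pairs allow). CCND2 and CCND3 made up 30.8% ± 7.48 and 28.6% ± 12.04 in IWRR wells, against 36.4% ± 5.23 and 37.1% ± 14.5 in IWR wells, and both shares were lower in IWRR in 5 of 5 lines. These shares sum to 100% in a well and are not independent of each other.

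**Figure D2:**
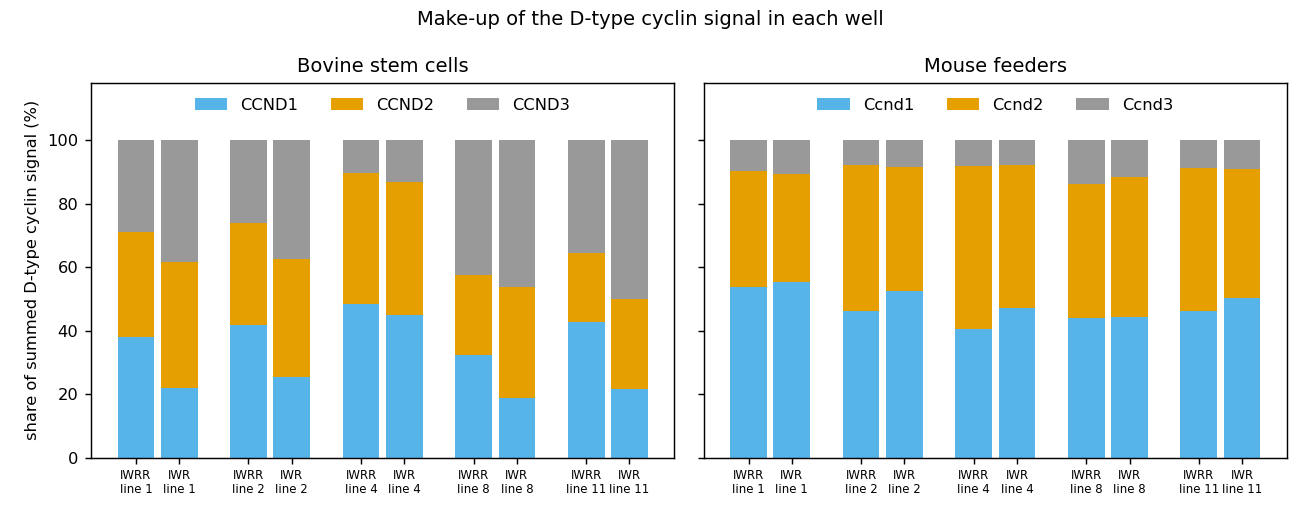
Share of CCND1, CCND2 and CCND3 in the summed D-type cyclin signal of each well (%), for bovine genes and for their mouse counterparts, with IWRR left of IWR in each line. The bovine CCND1 share is larger in the IWRR well of every line, from 3.47 points in line 4 to 21.1 points in line 11, whereas the mouse Ccnd1 share differs by -6.64 to -0.33 points (IWRR minus IWR).

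MYC was higher without IWR-1 in every line but was not called. It stood at 225, 165, 919.9, 149 and 241 normalised reads in IWRR wells of lines 1, 2, 4, 8 and 11, against 188, 130.3, 529.5, 119 and 130.2 in IWR wells. The log2 fold change was 0.52 ± 0.13 SE (95% CI 0.24 to 0.80, limma adjusted p = 0.111). Of all tested bovine genes, 6.2% were higher in IWRR in all 5 lines, as CCND1 and MYC were. DESeq2 on the recovered reads called MYC (adjusted p = 0.0154), and edgeR did not (adjusted p = 0.0921). MYC had 124 to 797 reads per well, so that counting error alone came to 8.98% of the count in the lowest well.

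MYCN varied in direction between lines. It stood at 14517, 9396, 13189.9, 9897 and 8967 normalised reads in IWRR wells of lines 1, 2, 4, 8 and 11, against 13914, 11954, 10556, 7881 and 6777 in IWR wells. Line 2 was lower in IWRR by 0.35 on the log2 scale, and the other lines were higher by 0.06 to 0.40. The log2 fold change was 0.15 ± 0.10 SE (95% CI -0.06 to 0.37, adjusted p by limma = 0.724), and with 1 line left out it was between 0.091 without line 11 (adjusted p = 1.00) and 0.28 without line 2 (adjusted p = 0.0732). MYC made up 2.77% ± 2.14 of the summed MYC and MYCN signal in IWRR and 2.11% ± 1.52 in IWR wells (SD, n = 5 each), or 6.52% in IWRR and 4.78% in IWR in line 4.

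Levels also differed between lines. All 5 bovine members differed between lines (limma F test of the line, adjusted p of 7.71e-07 to 0.0124), as did 66.5% of all tested bovine genes, so that this count says little about the members. Averaged over media on the log scale, the order for CCND1 was line 4, then 2, 1, 11 and 8. Line 4 exceeded line 2 by 1.92 on the log2 scale (95% CI 1.48 to 2.35) and line 11 exceeded line 8 by 0.57 (0.14 to 1.01), whereas the intervals between lines 2 and 1 and between lines 1 and 11 included 0. For CCND2 the order was 4, 1, 2, 11 and 8, with intervals above 0 between lines 4 and 1 (1.504, 95% CI 1.24 to 1.76) and between lines 2 and 11 (0.45, 95% CI 0.19 to 0.71). For MYC the order was 4, 1, 11, 2 and 8, and line 4 exceeded line 1 by 1.76 (95% CI 1.31 to 2.21), with no interval above 0 among the other neighbours.

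CCND3 and MYCN had other orders. CCND3 was highest in line 11 and lowest in line 4, a 1.4-fold range, and MYCN was highest in line 1 and lowest in line 11, a 1.82-fold range, against 5.96-fold for CCND1, 4.42-fold for CCND2 and 5.22-fold for MYC. These last 3 ranges rest on line 4. Without it they were 0.66 for CCND1, 0.64 for CCND2 and 0.63 for MYC on the log2 scale, below the 0.87 of MYCN and above the 0.45 of CCND3. No neighbours in the orders of CCND3 and MYCN differed beyond their 95% intervals. The line differences were called without line 4 for CCND1, CCND2, CCND3 and MYCN. For MYC they were not (limma adjusted p = 0.0986), and for CCND3 the call was lost without line 11 (adjusted p = 0.157). The fibroblast marker sum given above was highest in the same line 4 as CCND1, CCND2 and MYC. The mouse share of reads was highest there too, at 41.4% in IWRR and 42.3% in IWR. In the other lines that share was 21.2% to 26.6% in IWRR and 23.4% to 33.3% in IWR. The part of either in these levels was not tested.

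In the mouse feeders no member was called. Of the 5 mouse members 0 passed limma's threshold, where 4.19% of all 15871 tested mouse genes were called, 2.14% as higher in IWRR and 2.05% as lower. By limma 4 of the 5 had an unadjusted p under 0.05, edgeR called 0 and DESeq2 called 2. Among all 15871 tested mouse genes 2573 had an unadjusted p under 0.05, edgeR called 727 and DESeq2 called 904. Ccnd1 stood at 26346, 29364, 24131, 14854 and 23121 normalised reads in IWRR wells of lines 1, 2, 4, 8 and 11, against 22589, 24845, 25539.9, 15155 and 21621 in IWR wells. It was higher in IWRR in 3 of 5 lines, with a log2 fold change of 0.09 ± 0.07 SE (95% CI -0.07 to 0.25, adjusted p by limma = 0.636). This interval and that of bovine CCND1 (0.88 to 1.42) stand side by side without a test, because the tables were normalised separately.

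**Figure D3:**
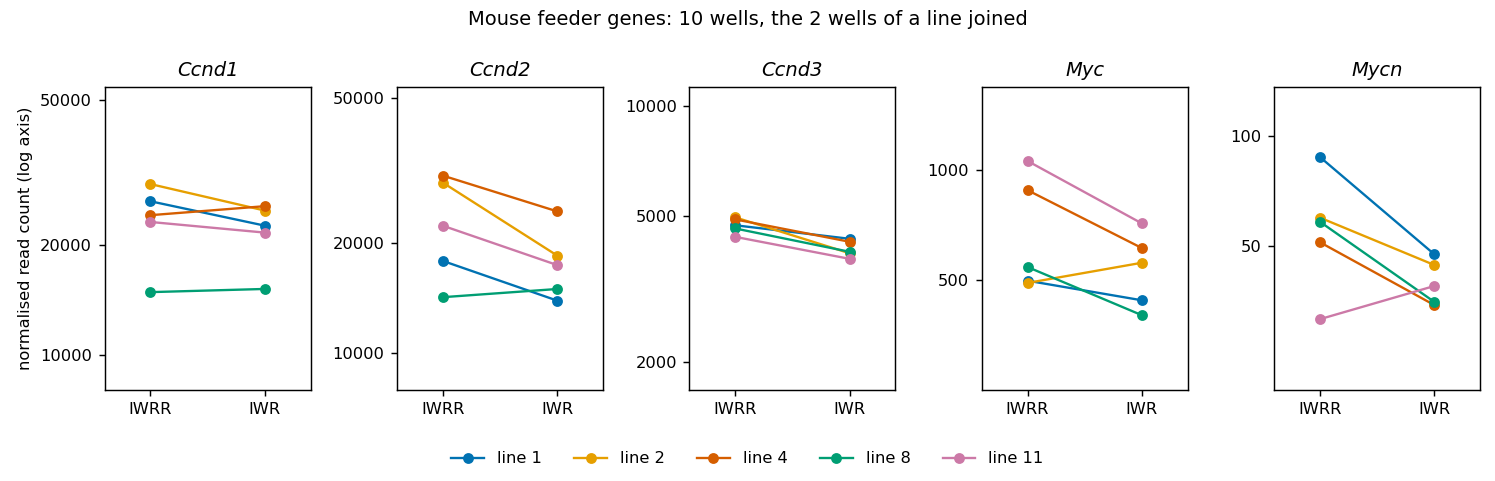
Normalised read counts (log axis) of the 5 mouse members in the same 10 wells, with IWRR left of IWR and the wells of a line joined. Ccnd3 is higher in every IWRR well than in any IWR well, whereas the groups overlap for Ccnd1, Ccnd2, Myc and Mycn.

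Ccnd2 and Ccnd3 came nearest to the threshold among the mouse members. Ccnd2 stood at 17911, 29349, 30676, 14248 and 22365 normalised reads in IWRR wells of lines 1, 2, 4, 8 and 11, against 13945, 18526, 24479.8, 15003 and 17449 in IWR wells. The well of line 8 was the exception to a higher level in IWRR (log2 difference -0.07), and the log2 fold change was 0.33 ± 0.09 SE (95% CI 0.13 to 0.53, limma adjusted p = 0.0745), or 0.43 without line 8 (adjusted p = 0.0049). Leaving out any other single line gave no call, with limma adjusted p up to 0.256. DESeq2 called it (adjusted p = 0.0123).

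Mouse Ccnd3 was the member whose groups did not overlap. It stood at 4723, 4965, 4902, 4629 and 4390.4 normalised reads in IWRR wells, against 4337, 3959, 4256, 3996 and 3822 in IWR wells. Every IWRR well lay above every IWR well, which held for 0.258% of all tested mouse genes, and Ccnd3 was higher in IWRR in 5 of 5 lines, as were 7.83% of them. The change was small, 1.16-fold (95% CI 1.06 to 1.27; log2 fold change 0.21 ± 0.06 SE, adjusted p by limma = 0.0651), and DESeq2 called it (adjusted p = 0.0452). The Ccnd1 share of the mouse D-type cyclin signal was 46.1% ± 4.89 in IWRR and 49.9% ± 4.31 in IWR wells (SD, n = 5 each), lower in IWRR in 5 of 5 lines (exact sign-flip p = 0.063).

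Mouse Myc and Mycn were not called either. Myc stood at 498, 491, 882, 543 and 1061 normalised reads in IWRR wells of lines 1, 2, 4, 8 and 11, against 440.5, 558, 612, 401 and 715 in IWR wells. It was higher in IWRR in 4 of 5 lines (log2 fold change 0.31 ± 0.11 SE, 95% CI 0.07 to 0.54, limma adjusted p = 0.158), and line 2 went the other way by -0.18. Without line 2 the log2 fold change was 0.43 and was called (limma adjusted p = 0.0112). Leaving out any other single line gave no call for Myc, with limma adjusted p up to 0.490. Mycn was near the low end, at 87.4, 59.6, 51.0, 58.1 and 31.4 normalised reads in IWRR wells, against 47.3, 44.2, 34.3, 35.04 and 38.7 in IWR wells (log2 fold change 0.45 ± 0.21 SE, adjusted p by limma = 0.308). With the mouse share of reads as a further term it was 1.03 (95% CI 0.07 to 1.98, adjusted p by limma = 1.00).

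The Mycn values rest on few reads. The mouse table held 32 to 85 Mycn reads in IWRR and 34 to 57 in IWR wells, with a counting error of 17.7% in the lowest well. They amounted to 0.35 to 0.74 reads per 100 bovine MYCN reads of the same well in IWRR and 0.31 to 0.77 in IWR. Whether some of them came from bovine RNA was not tested.

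**Figure D4:**
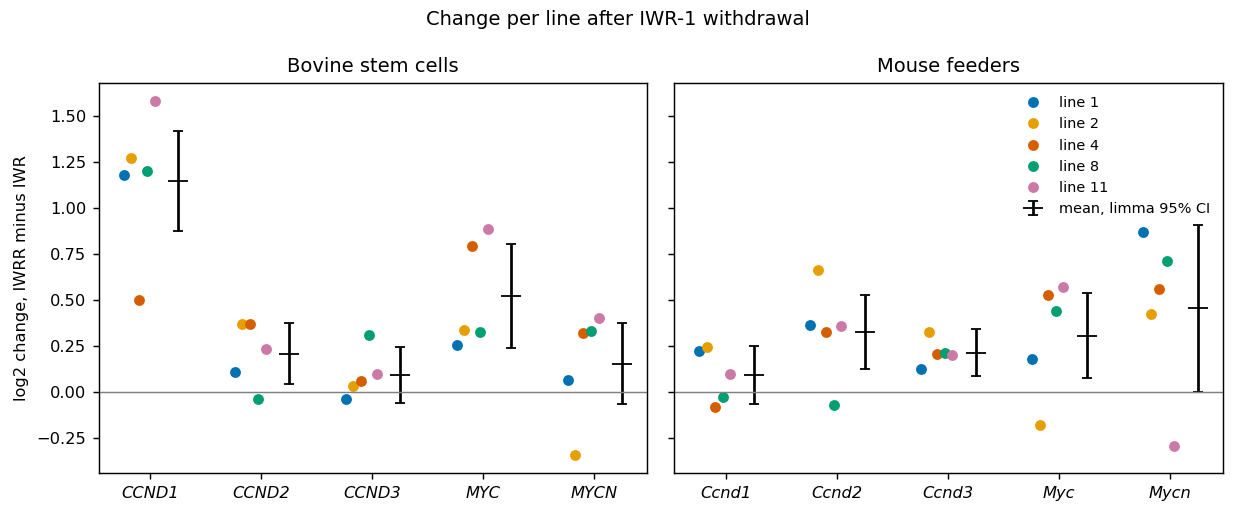
Log2 difference between the IWRR and the IWR well of each line (coloured points) for each member in bovine cells and mouse feeders, with the mean and its limma 95% confidence interval (black). Bovine CCND1 lies at 0.50 to 1.58 in the 5 lines, and the interval of mouse Ccnd1 includes 0.

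The mouse members were also compared between the line numbers of their wells. Ccnd1, Ccnd2 and Myc differed between line numbers (limma F test, adjusted p = 0.000848, 0.00189 and 0.00315), and Ccnd3 and Mycn did not pass that test (adjusted p = 0.543 and 0.262), where 35.1% of all tested mouse genes passed. The order for Ccnd1 was line 2, then 4, 1, 11 and 8, and only lines 11 and 8 differed beyond their interval (0.58, 95% CI 0.32 to 0.83); without line 8 its call was lost (adjusted p = 0.221). The order was 4, 2, 11, 1 and 8 for Ccnd2, with an interval above 0 between lines 11 and 1 (0.32, 95% CI 0.0048 to 0.64). For Myc it was 11, 4, 2, 1 and 8, with an interval above 0 between lines 4 and 2 (0.49, 95% CI 0.12 to 0.86).

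Reads of all 5 genes were counted for both the dividing bovine cells and the arrested feeders. For mouse Mycn, a bovine origin of some reads was not tested. In CPM, reads scaled to a common total of reads of the same species in the well, bovine CCND1 had 19.8 to 94.7 in IWRR and 8.71 to 66.7 in IWR wells, and mouse Ccnd1 had 697 to 1257.5 in IWRR and 684 to 1203 in IWR wells. Bovine CCND2 had 15.4 to 80.5 in IWRR and 14.5 to 62.2 in IWR wells, and mouse Ccnd2 had 669 to 1465 in IWRR and 655 to 1153 in IWR wells. For cyclin D3 the values were 17.5 to 27.5 in IWRR and 18.4 to 25.5 in IWR wells for the bovine gene, and 202 to 234 in IWRR and 174 to 204 in IWR wells for the mouse gene.

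The values of the MYC family were set out in the same way. Bovine MYC had 2.48 to 16.1 CPM in IWRR and 2.06 to 9.26 in IWR wells, and mouse Myc had 21.0 to 48.9 in IWRR and 18.1 to 32.5 in IWR wells. Bovine MYCN had 142 to 231 in IWRR and 113 to 223 in IWR wells, and mouse Mycn had 1.45 to 4.15 in IWRR and 1.58 to 2.22 in IWR wells. These values are not divided by transcript length and come from tables scaled separately, so no test and no order between genes or species is drawn from them.

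No partner of the D-type cyclins was called by limma in the bovine cells. Limma called 0.951% of all 18506 tested bovine genes, so 0 calls in this list or in those below say little. Among the 18506 genes 1870 had an unadjusted p under 0.05, edgeR called 190 and DESeq2 called 422. Of 15 tested kinases, pocket proteins and E2F factors 0 rose and 0 fell (limma; 1 had an unadjusted p under 0.05, edgeR called 0 and DESeq2 called 1), with 7 of 15 positive and a median log2 fold change of -0.02 against -0.0046 for all tested bovine genes. The gene nearest to the threshold was CDK6, a catalytic partner of the D-type cyclins, at 0.47 ± 0.11 SE (4695 ± 4049 normalised reads in IWRR and 3450 ± 3297 in IWR, SD, n = 5 each; limma adjusted p = 0.0884), higher in 5 of 5 lines. DESeq2 called CDK6 (adjusted p = 0.00163), and limma called it without line 8 (0.57, adjusted p = 0.0456). Limma did not call it without any other single line (adjusted p up to 0.311). CDK4, the other partner, named here outside the naming rule, was at -0.02 ± 0.06 SE. The pocket protein genes RBL2 (-0.08 ± 0.06) and RBL1 (-0.06 ± 0.05) and E2F5 (-0.07 ± 0.07) lay near 0.

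No inhibitor of cyclin-dependent kinases and no later cyclin was called, where limma called 0.951% of all tested bovine genes. Of 8 inhibitor genes 6 were tested, CDKN2A and CDKN2B being below the filter, and 0 were called by limma, edgeR or DESeq2, with 0 at an unadjusted p under 0.05; 4 of the 6 were positive, with a median of 0.05. CDKN2C, which encodes an inhibitor of CDK4 and CDK6, was at -0.57 ± 0.31 SE on few reads (42.7 ± 62.0 in IWRR and 47.5 ± 56.7 in IWR, SD, n = 5 each), and CDKN1B was at 0.10 ± 0.06. Of 12 other cyclin and kinase genes 0 were called by limma, edgeR or DESeq2, with 0 at an unadjusted p under 0.05; 7 of the 12 were positive, with a median of 0.01. CCNA2, a cyclin of S phase and mitosis, was at 0.06 ± 0.05, CDK2 at -0.04 ± 0.06 and the phosphatase gene CDC25C at 0.13 ± 0.07.

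Genes of DNA replication and proliferation were not called as higher or lower, where limma called 0.951% of all tested bovine genes. Among 22 tested genes 0 were called by limma, edgeR or DESeq2, with 0 at an unadjusted p under 0.05; 15 of the 22 were positive, the median log2 fold change was 0.04 and the range -0.07 to 0.12. MCM4, a subunit of the replicative helicase, was at 0.12 ± 0.06 SE, and FOXM1, a transcription factor of the mitotic programme, at 0.09 ± 0.06. GINS1 was at 0.06 ± 0.05 and the spindle checkpoint kinase gene BUB1 at -0.06 ± 0.05.

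**Figure D5:**
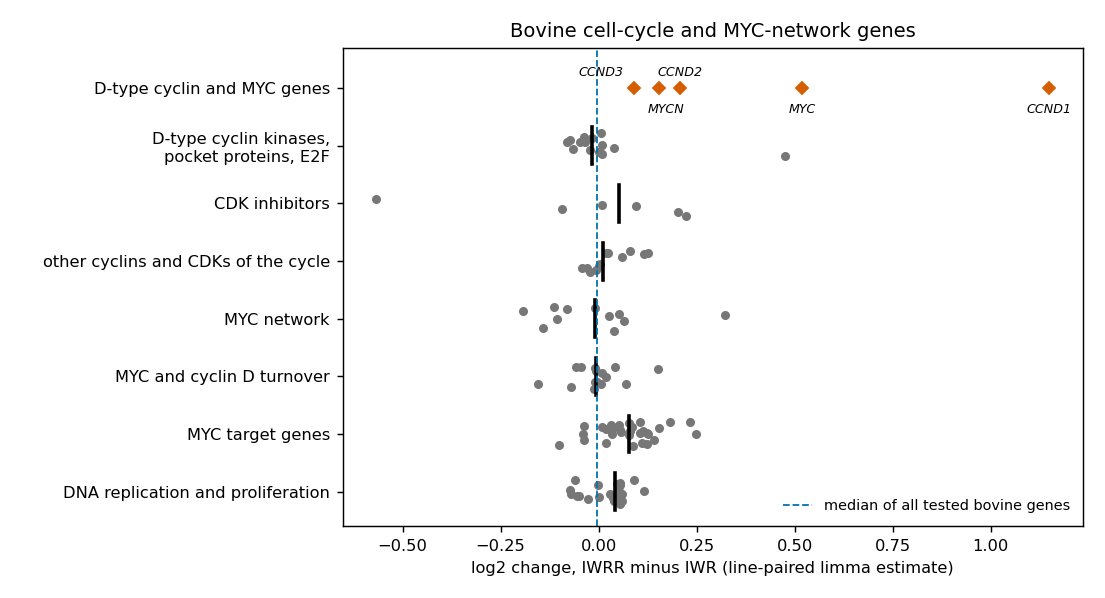
Log2 change (IWRR minus IWR, line-paired limma estimate) of the 5 bovine members (diamonds) and of the tested genes of 7 lists (points), with each list's median (black bar) and the median of all tested bovine genes (dashed). CCND1 at 1.15 lies to the right of every listed gene, and the medians of the lists lie between -0.02 and 0.08.

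The partners and rivals of MYC were tested as a network of 11 genes. Limma called 0 of them, where it called 0.951% of all tested bovine genes. Of the 11, 2 had an unadjusted p under 0.05, edgeR called 0 and DESeq2 called 1. The change was positive in 5 of 11, with a median of -0.01. MYCL, the third MYC paralog, was at 0.32 ± 0.07 SE (2005 ± 279.8 normalised reads in IWRR and 1598 ± 156 in IWR, SD, n = 5 each; adjusted p by limma = 0.0621) and higher in 5 of 5 lines, and DESeq2 called it (adjusted p = 0.0101). MXD4, which encodes a repressor that competes with MYC for MAX, was at -0.19 ± 0.07, MXD3 at -0.14 ± 0.10 and MAX itself at -0.11 ± 0.07. Among 15 genes of MYC and cyclin D turnover 0 were called (limma; 2 with an unadjusted p under 0.05, edgeR 0 and DESeq2 0), 6 of 15 being positive with a median of -0.0073. FBXO31, which encodes an F-box protein that targets cyclin D1 in human cells, was at -0.15 ± 0.06 and lower in 5 of 5 lines, and the deubiquitinase gene USP36 was at 0.15 ± 0.06.

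No known MYC target gene passed limma's test, which 0.951% of all 18506 tested bovine genes passed. An unadjusted p under 0.05 was reached by 1870 of those 18506. Of 30 tested targets 0 were called (limma; 4 with an unadjusted p under 0.05, edgeR 0 and DESeq2 0). The change was positive in 26 of the 30, or 86.7%, against 48.4% of all tested bovine genes, and the median was 0.08 against -0.0046; without line 4, 25 of 30 were positive. The folate carrier gene SLC19A1 was at 0.25 ± 0.06 SE, LDHA, an enzyme of glycolysis, at 0.23 ± 0.09, the ribosome assembly gene BOP1 at 0.18 ± 0.06 and MYBBP1A at 0.15 ± 0.07. With the mouse share of reads as a further term they were at 0.17, 0.20, 0.043 and 0.039, in that order. That fit cannot tell the share and the medium apart. Genes of a list vary together in the same wells, so the count was given no p.

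The bovine genes whose log2 levels followed a member most closely over the 10 wells were listed by Pearson correlation. These correlations are descriptions over wells that share lines, and carry no p. For CCND1 they were NPR3, the natriuretic peptide clearance receptor gene (r = 0.97), TRHDE (0.96) and GOLM1 (0.95). For CCND2 they were MARCKS (0.98), GABRG3 (0.97) and KLF6 (0.97), and for MYC they were SUN2 (0.98), MKX (0.97) and JAG1 (0.97). For CCND3 they were IL4I1 (0.96), ADA (0.96) and VSIG8 (0.95), and for MYCN they were PPP1R14B (0.96), PGAM5 (0.96) and FAM174C (0.96). Over the 8 wells without line 4, r was 0.92 to 0.94 for the genes named for CCND1, 0.78 to 0.85 for those of CCND2, 0.79 to 0.84 for those of MYC, 0.96 to 0.98 for those of CCND3 and 0.96 to 0.98 for those of MYCN.

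Of these 15 genes limma called NPR3 with the medium, as did edgeR and DESeq2, and DESeq2 also called MKX (0.37, adjusted p = 0.0160) and JAG1 (0.48, adjusted p = 0.0105). Limma called 0.951% of all 18506 tested bovine genes. The 15 were picked by correlation over these same wells. Genes that follow CCND1 were thus in part picked for a medium difference, and their calls are not separate evidence. NPR3 had 56.2 to 817 normalised reads in IWRR and 20.4 to 644 in IWR wells (a log2 difference of 1.37 ± 0.23 SE within lines; adjusted p = 0.0236 by limma). Leaving out line 1, 8 or 11 ended limma's call (1.252 to 1.41 on the log2 scale in those fits), as did leaving out the filter (adjusted p = 0.0824), leaving out the line term (adjusted p = 1.00), and adding the mouse share of reads, with which the change was 0.45. Between members, CCND1, CCND2 and MYC followed each other over the 10 wells (r = 0.85 for CCND1 with CCND2, 0.91 for CCND1 with MYC and 0.94 for CCND2 with MYC), the wells of line 4 being the highest for all 3. Over the 8 wells without line 4 these were 0.49, 0.78 and 0.54. CCND2 then had its highest r among the members with MYCN, at 0.75, against 0.51 over the 10 wells. CCND3 had r = -0.64 with CCND2, or -0.54 without line 4, and r = -0.32 with CCND1, which turned to 0.18 without line 4.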

How the data were processed

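Alignment used ARS-UCD1.3 (cattle) and GRCm39 (mouse), per the labels. Tools listed, without roles, in the submitters' processing notes were featureCounts 1.5.0-p3, StringTie 1.3.3b, HISAT2 2.0.5 and fastp. The authors deposited a signal per gene and library that was a whole multiple of 1 step per library (100% of positive values, tolerance 0.01 reads), the pattern of reads divided by a size factor; the step gave the recovered reads. Because the values are scaled, limma 3.58.1 (R 4.3.3, intensity trend) was used on log2(value + 1), keeping genes that reached a value of 10 in 5 or more libraries, with the line as a block and Benjamini-Hochberg adjusted p under 0.05 called; a fold change on this scale understates that of low genes. edgeR 4.0.16 and DESeq2 1.42.0 on recovered reads were alternatives. Of 27590 bovine IDs 24660 matched a RefSeq table of ARS-UCD2.0, used for symbols only. The mouse table held 2 further columns that were not used; size factors may have been set with them.

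Wells are paired by line number, as each number is a single cell line. Deviations from group means correlated within lines at 0.617 to 0.883 (bovine) and 0.488 to 0.725 (mouse). Each line gave 1 well per medium, so p-values also hold differences between wells. Up to 4 genes per list with the smallest adjusted p and the 3 genes most correlated with each member were named. Members and lists were chosen with earlier results of these data known. The fit was tested on simulated data.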

Additional observations from a re-analysis of the deposited data

Results flagged for a closer look

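Among 38 groups of 5 wells examined (members and shares, each medium), 10 had a well whose gap to the nearest other was over 0.71 of the group's range, a limit that chance passes in about 1 of 20 groups, and all 10 wells were of line 4. The groups are not independent, as both media hold the same lines and the gene shares are made from the members. The 10 are therefore not separate events. Bovine CCND1 in line 4 was at 5399 normalised reads in IWRR, against 1155 to 1961 in the other lines, and at 3814 in IWR, against 501 to 772. Bovine CCND2 was at 4592 in IWRR, against 901 to 1479.9, and at 3560 in IWR, against 864 to 1373. Bovine MYC was at 919.9 in IWRR, against 149 to 241, and at 529.5 in IWR, against 119 to 188. The MYC share of the MYC and MYCN signal was 6.52% in IWRR, against 1.48% to 2.62%, and 4.78% in IWR, against 1.08% to 1.88%. The CCND1 share of the D-type cyclin signal in IWR was 45.0%, against 18.9% to 25.4%. The mouse share of reads in IWRR was 41.4%, against 21.2% to 26.6%.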

How the results depend on the processing

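CCND1 kept its direction in every alternative run, and its call in all but 2 of them. Without the replicate block its log2 fold change was 1.15 (limma adjusted p = 1.00) and with the mouse share as a covariate beside the block 0.55; with 1 line left out it was 1.04 to 1.31. Without the block limma called 0 bovine and 0 mouse genes (105 and 584 at an unadjusted p under 0.05), and with the share covariate 0 and 0 (456 and 687), against 176 and 665 with the block alone. DESeq2 called 422 bovine genes, and without a filter limma called 53 bovine and 329 mouse genes, more genes being tested. With 1 line left out the counts were 31 to 185 bovine (36 without line 1, 102 without line 4, 31 without line 11) and 270 to 935 mouse genes (319, 283 and 270 without line 1, 4 and 11). The mouse genes that differed between line numbers were 3669 to 6462 of the tested ones, against 5574 with all lines.

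DESeq2 also called the members MYC (0.53), mouse Ccnd2 (0.33) and Ccnd3 (0.21) and, among the other named genes, CDK6 (0.47), MYCL (0.32), MKX (0.37) and JAG1 (0.48); CDK6 was also called without line 8 (0.57). With 1 line left out the ranges were 0.24 to 0.43 for Ccnd2, called without line 8 (0.43), and 0.24 to 0.43 for Myc, called without line 2 (0.43). The CCND1 share difference of 14.1 points passed the unpaired exact permutation test without the replicate block (p = 0.0397). The other members kept their side of the threshold, though the share covariate moved uncalled mouse Mycn to 1.03, against 0.45 with the block alone. With the share covariate the sign turned for E2F5 (0.026), CDC25A (-0.012), SKP2 (-0.015), FOXM1 (-0.094), GINS1 (-0.0036), BUB1 (0.0079), GABRG3 (-0.024), ADA (-0.22) and JAG1 (-0.15); limma called none of these with the block alone, and DESeq2 called JAG1. With 1 line left out it turned for MARCKS (-0.044 to 0.012), E2F5 (-0.11 to 0.0030), CDK2 (-0.066 to 0.013), PPP1R14B (-0.043 to 0.15) and FAM174C (-0.047 to 0.17). Where no value is named, the cause was not tested. Depth limits mouse Mycn, at 32 to 85 reads, and bovine MYC, at 124 to 797; the stricter filter removed Mycn. The correlations without line 4 were chosen after seeing the data.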
